A study of Rattus norvegicus with 58 samples.

Results

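Triceps brachii, the forelimb extensor that served as the spared muscle of the series, was compared between rats called early-sarcopenic, 10 animals aged 18 months, and rats called sarcopenic, 9 animals aged 24 months. The comparison used 19 of the 58 libraries of the series, chosen by muscle and age label alone. All animals were male Wistar rats with no treatment in the labels, and each also gave a gastrocnemius library, so that the same step could be followed in a hindlimb muscle prone to wasting. A further group of 10 adult rats of 8 months entered the fit and the estimate of the spread. PolyA RNA of muscle tissue was sequenced, so that fewer cells of a type and less RNA per cell cannot be told apart. The ages are cross-sectional, with different rats at each age.

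Skeletal muscle fibres depend on their motor nerve. Where a fibre loses contact with its nerve, genes of the acetylcholine receptor and of the synaptic kinase MuSK, which are normally transcribed mainly under the endplate, become active along the fibre, together with a cell adhesion and cell-cycle arrest programme that includes Ncam1, Runx1, Gadd45a and Cdkn1a. Fast fibres rely on glycogen and glycolysis, whereas oxidative fibres burn fatty acids in their mitochondria. The question put to these libraries was whether the late step of gastrocnemius, from 18 to 24 months, has a smaller counterpart in the spared muscle.

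Symbols were at hand for 2145 of the 14947 genes tested. They come from a list that the authors selected on the same libraries for a difference between the muscles in the effect of age. Any statement on named genes therefore rests on genes chosen for such a difference and is not independent evidence of it. Between 12907761 and 28629700 reads were counted on genes per library at 18 months and between 13707850 and 41077568 at 24 months. Levels are counts scaled to library size by the trimmed mean of M values (TMM CPM). A log2 step is the fitted log2 fold change from 18 to 24 months with its SE, and SD is the spread over rats. The triceps brachii library of rat 42 stood apart at 24 months. Its summed level of 10 skeletal muscle marker genes was 15900 TMM CPM, against 30500 to 56700 in the other 8 libraries of 24 months and 43000 to 67300 at 18 months. The median of each gene list described, other than the cell type markers, is therefore given with and without this rat. Most of these muscle markers, among them Actn3, Mybpc2 and Eno3, are also on the fast fibre list. Eno3 and Pygm are on the glycolysis and glycogen list. For these lists leaving out rat 42 is no independent check, since low levels of their own members set it apart.

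Few genes passed the test in triceps brachii. Of 14947 genes, 22 were regulated between 18 and 24 months (0.147%), that is past a 2-fold change with an adjusted p below 0.05 in edgeR's quasi-likelihood F test, and all 22 were higher at 24 months. In gastrocnemius of the same rats, 401 genes were regulated (2.68%), 261 higher (1.75%) and 140 lower (0.937%). Without the limit on the fold change, 29 genes passed in triceps brachii (0.194%), 27 higher (0.181%) and 2 lower (0.0134%), against 3109 in gastrocnemius (20.8%). At an unadjusted p under 0.05, 2246 genes differed in triceps brachii (15.0%), 1379 higher (9.23%) and 867 lower (5.8%). From 8 to 18 months, a step that shares the 18-month libraries, 4 genes were regulated in triceps brachii (0.0268%), and from 8 to 24 months 130 (0.87%).

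The small number of calls was not firm. Of the 22 regulated genes, 10 had an adjusted p that rounds to 0.05. The count lay between 3, without rat 12, and 59, without rat 17, when each of the 29 rats was left out in turn, and 4 of the 22 stayed regulated without rat 42. It was 39 with DESeq2, 1 with triceps brachii libraries alone, and 0 with limma's voom and with edgeR on the 19 libraries compared, with 2125 and 1805 genes at an unadjusted p under 0.05.

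None of the 22 regulated genes had a symbol. Their log2 fold changes ran from 1.11 to 3.74, with a median of 2.18, and their mean levels at 24 months ran from 0.299 to 830 TMM CPM. The gene with the smallest p, ENSRNOG00000028841, had a lowest, median and highest level of 0.334, 1.24 and 2.97 TMM CPM at 18 months and of 1.83, 3.81 and 29.0 at 24 months. Its log2 step was 2.61 (SE of 0.45, adjusted p = 0.00392), and 6 of 9 sarcopenic rats lay above every early-sarcopenic rat. ENSRNOG00000009047, the next, had 3.27, 7.11 and 23.5 TMM CPM at 18 months and 2.12, 85.5 and 200 at 24 months, a log2 step of 2.94 (SE of 0.52, adjusted p = 0.00392). It was high in 7 sarcopenic rats, at 200 in rat 42 and 181 in rat 41, and at 2.12 in rat 45, below every early-sarcopenic rat. Both genes passed with any single rat left out.

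The regulated genes were uneven between sarcopenic rats. For none of the 22 did the levels of the groups separate, and over all genes tested 0 lay entirely above (0.0%) and 1 entirely below (0.00669%) the 18-month levels. The highest sarcopenic value fell in rat 42 for 13 of the 22 genes and in rat 46 for 5. In ENSRNOG00000016149, with 12 reads over the 18-month and 204 over the 24-month libraries, the difference rested on rat 50, and the log2 fold change went from 3.55 to -1.19 without it. Rat 50 had 4.96 TMM CPM and the other 18 triceps brachii libraries of these ages 0 to 0.560, whereas gastrocnemius had 21.3 to 47.6. In gastrocnemius, 21 of the 22 genes had a positive log2 fold change (51.6% of all genes did), with a median of 0.88, and 8 were regulated there.

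The 2 genes that fell had small steps. ENSRNOG00000003794 went from 4.47 ± 0.990 to 2.83 ± 0.506 TMM CPM (SD, n = 10 and 9), a log2 step of -0.66 (SE of 0.14, adjusted p = 0.0298). ENSRNOG00000032625 went from 6.18 ± 0.880 to 4.32 ± 0.676, a log2 step of -0.51 (SE of 0.11, adjusted p = 0.0298), with 7 of 9 sarcopenic rats below every early-sarcopenic rat. The single gene whose groups did not overlap, ENSRNOG00000016867, had 16.6 to 24.5 TMM CPM at 18 months and 13.7 to 16.3 at 24 months, with an adjusted p of 0.0633 in edgeR. These 3 genes and ENSRNOG00000016149 are named after their values were seen.

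Acot2 was the only gene with a symbol that passed. It encodes a mitochondrial thioesterase that frees fatty acids from coenzyme A. Its lowest, median and highest levels were 9.77, 15.3 and 19.5 TMM CPM at 18 months and 15.7, 20.9 and 34.4 at 24 months, a log2 step of 0.62 (SE of 0.13, adjusted p = 0.0298 in edgeR). In 6 of 9 sarcopenic rats it was above every early-sarcopenic rat, with the highest levels in rats 42, 41 and 46. In gastrocnemius it went from 20.9 ± 3.36 to 19.0 ± 3.02 TMM CPM (SD, n = 10 and 9), a log2 fold change of -0.13 (adjusted p = 0.483). Acot2 passed in 20 of 29 fits that left out 1 rat, and the adjusted p was highest, at 0.149 with a log2 fold change of 0.53, without rat 42.

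The junction genes came next. Promoters of the 4 postsynaptic genes with a symbol are shown because a muscle regulatory factor site, the E-box CAGCTG, lies in each. The 250 bases before the start of transcription are given 5' to 3' in the direction of the gene, from RefSeq on GRCr8, with CAGCTG in capitals.
Chrna1, chr3:78877354-78877603, minus strand: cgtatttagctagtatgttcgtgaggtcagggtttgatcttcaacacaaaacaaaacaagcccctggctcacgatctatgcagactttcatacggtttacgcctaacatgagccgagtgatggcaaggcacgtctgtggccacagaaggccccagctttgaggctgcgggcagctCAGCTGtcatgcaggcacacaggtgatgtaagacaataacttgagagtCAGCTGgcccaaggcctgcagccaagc
Chrnb1, chr10:55015108-55015357, minus strand: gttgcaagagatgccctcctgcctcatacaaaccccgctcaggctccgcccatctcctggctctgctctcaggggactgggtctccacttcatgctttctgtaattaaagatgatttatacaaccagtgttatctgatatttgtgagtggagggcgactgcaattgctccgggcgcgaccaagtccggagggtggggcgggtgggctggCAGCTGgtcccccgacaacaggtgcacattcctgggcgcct
Chrne, chr10:55834155-55834404, minus strand: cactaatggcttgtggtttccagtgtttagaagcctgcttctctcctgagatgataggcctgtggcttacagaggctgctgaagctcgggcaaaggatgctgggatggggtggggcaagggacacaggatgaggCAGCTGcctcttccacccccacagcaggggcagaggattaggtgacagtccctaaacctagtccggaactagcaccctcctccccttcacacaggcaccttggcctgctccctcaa
Musk, chr5:77853486-77853735, plus strand: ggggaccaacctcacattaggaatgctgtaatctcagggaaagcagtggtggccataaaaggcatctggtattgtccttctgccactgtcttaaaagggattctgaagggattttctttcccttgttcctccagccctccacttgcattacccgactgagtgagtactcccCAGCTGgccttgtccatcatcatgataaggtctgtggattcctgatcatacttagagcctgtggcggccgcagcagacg
CAGCTG reads the same on both strands. In Chrna1 it began at -75 and -27 from the start, in Chrnb1 at -41, in Chrne at -116 and in Musk at -79. The same letters occurred in 12.0% of the 33469 RefSeq promoters of this length, and a match is a description only. The 4 genes with this sequence did not share a pattern in triceps brachii.

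Chrna1, the alpha subunit that binds acetylcholine, had 2.03, 3.93 and 8.67 TMM CPM at 18 months and 1.72, 11.4 and 33.1 at 24 months as lowest, median and highest level. The mean went from 4.59 to 13.3, a log2 step of 1.54 (SE of 0.44, unadjusted p = 0.000809), and the adjusted p of 0.106 in edgeR missed the threshold. In 6 of 9 sarcopenic rats the level was above every early-sarcopenic rat, with 33.1 in rat 42, 23.8 in rat 44 and 19.4 in rat 50, while rats 45 and 49 had 2.62 and 1.72. In gastrocnemius the mean went from 57.5 ± 45.6 to 161 ± 74.9 TMM CPM (SD, n = 10 and 9), a log2 fold change of 1.48 (adjusted p = 0.00656). In the fit with the rat as a block, the step in triceps brachii minus that in gastrocnemius was -0.32 (SE 0.64, adjusted p = 0.882). That fit compares the muscles within each rat, whereas the steps above come from a fit without the rat. Its difference need not equal that between these steps, and for Chrna1 it has the opposite sign.

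The other 3 postsynaptic genes had smaller steps, none past the test. Musk, the kinase that clusters the receptor, had 1.78 to 4.61 TMM CPM at 18 months and 2.16 to 8.60 at 24 months, a log2 step of 0.39 (SE of 0.26, adjusted p = 0.493). Its groups overlapped apart from rat 50 at 8.60, the next sarcopenic rat being at 3.62. The same library stood apart for ENSRNOG00000016149. Chrne, the subunit of the mature receptor, had a log2 fold change of 0.31 (adjusted p = 0.633), and Chrnb1, the beta subunit, of -0.17 (adjusted p = 0.429). The median over the 4 was 0.35 in triceps brachii (0.40 without rat 42) and 0.63 in gastrocnemius. Over all genes these medians were 0.03 and 0.01, and over genes with a symbol -0.01 and -0.21.

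**Figure D1:**
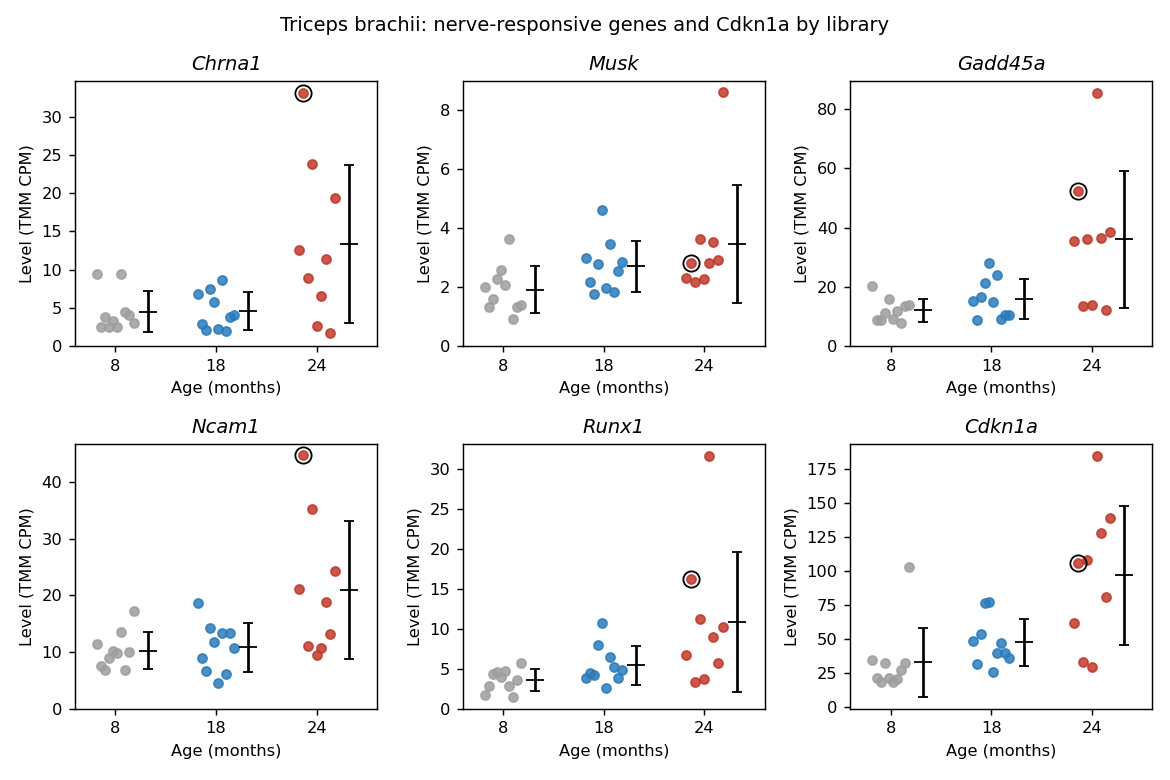
Level in TMM CPM (vertical axis, from 0) of 6 genes in each triceps brachii library by age in months, with the mean and SD of the group in black to the right of its points and rat 42 ringed. At 24 months Chrna1, Gadd45a, Ncam1, Runx1 and Cdkn1a spread upward in some rats and stayed at the 18-month level in others, whereas Musk was high only in rat 50.

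Genes that answer to denervation had higher levels in some sarcopenic rats and not in others. Of 9 with a symbol, 6 had a positive log2 fold change, beside 55.7% of all genes and 46.9% of those with a symbol. An unadjusted p under 0.05 was found in 4, all positive, beside 9.23% and 8.81% higher at that limit, and 0 passed adjustment in edgeR. The median was 0.96 in triceps brachii and 0.79 in gastrocnemius. In the fit with the rat as a block, the step in triceps brachii minus that in gastrocnemius had a median of -0.11. This difference was positive in 0 of the 9, beside 54.1% of all genes. In 2 of them, both negative, its unadjusted p was under 0.05 in edgeR. Without rat 42 the median in triceps brachii was 0.55, with 6 positive and 4 under an unadjusted p of 0.05. Gadd45a, a growth arrest gene induced by denervation, had 8.80, 15.0 and 28.2 TMM CPM at 18 months and 12.2, 36.1 and 85.6 at 24 months, a log2 step of 1.19 (SE of 0.32, adjusted p = 0.106). It was above every early-sarcopenic rat in 6 sarcopenic rats and at 12.2 to 13.8 in rats 43, 45 and 49.

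Ncam1, the neural cell adhesion molecule that reappears along denervated fibres, had 4.46, 11.2 and 18.6 TMM CPM at 18 months and 9.47, 18.9 and 44.7 at 24 months, a log2 step of 0.96 (SE of 0.27, adjusted p = 0.109). Runx1, a transcription factor that limits the wasting of denervated fibres, had 2.59, 4.64 and 10.7, and then 3.35, 8.95 and 31.7 TMM CPM, a log2 step of 1.03 (SE of 0.33, adjusted p = 0.145). For both genes the groups overlapped, with rat 42 highest for Ncam1 and rat 46 for Runx1. Ankrd1, a stretch-responsive ankyrin repeat protein, had the largest step of the list in triceps brachii, 1.87 on the log2 scale (adjusted p = 0.11).

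The 3 members with a negative step in triceps brachii were Myod1, Myl4 and Myh8. Myod1, the factor that commits cells to muscle, went from 51.7 ± 8.09 to 46.5 ± 16.2 TMM CPM in triceps brachii (SD, n = 10 and 9), a log2 fold change of -0.15 (adjusted p = 0.786), and had 0.67 in gastrocnemius (adjusted p = 0.0221). The difference between these steps was -0.92 (SE 0.21, unadjusted p = 0.000128, adjusted p = 0.0838 in edgeR). Myl4, an embryonic myosin light chain, had -0.30 in triceps brachii, and Myh8 had -0.09. Hdac4, a repressor induced by denervation, had a positive step of 0.26 (adjusted p = 0.533).

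Cell-cycle arrest and p53 target genes were measured next. Cdkn1a, the p21 inhibitor of cyclin-dependent kinases, had 25.9, 43.6 and 77.2 TMM CPM at 18 months and 29.6, 106 and 185 at 24 months, a log2 step of 1.03 (SE of 0.31, adjusted p = 0.127). It was above every early-sarcopenic rat in 6 of 9 sarcopenic rats, highest in rat 46, and at 29.6 and 33.6 in rats 45 and 43. Eda2r, the ectodysplasin A2 receptor, of the tumour necrosis factor receptor family, had a log2 fold change of 0.82 (adjusted p = 0.251) and Phlda3, a p53-induced inhibitor of Akt, of 0.67. Of 9 p53 targets, 6 were positive, beside 55.7% of all genes, with a median of 0.26 (0.25 without rat 42). Of these, 3 had an unadjusted p under 0.05, beside 9.23% of all genes, and of the negative members 1, Sesn1 at -0.23, beside 5.8%. None passed adjustment in edgeR. Krt18, an epithelial keratin, was at 0 to 0.373 TMM CPM at 18 months and 0 to 1.26 at 24 months, and its log2 fold change of 2.04 (adjusted p = 0.148) rests on 24 and 125 reads over the groups. Tp73, a relative of p53, had no read in 6 of 10 early-sarcopenic and 4 of 9 sarcopenic libraries.

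The genes of the late step in gastrocnemius were then followed in triceps brachii. They were called on gastrocnemius libraries only, but these come from the same rats. Of the 261 genes that rose in gastrocnemius, 232 (88.9%) had a positive log2 fold change in triceps brachii, against 55.7% of all genes tested. An unadjusted p under 0.05 was found in 90 of them, all positive (34.5%, against 9.23% of all genes), and 8 were regulated. Of the 140 genes that fell in gastrocnemius, 131 (93.6%) had a negative log2 fold change in triceps brachii, against 44.2% of all genes. An unadjusted p under 0.05 was found in 49, all negative (35.0%, against 5.8% of all genes), and 0 passed adjustment in edgeR.

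The steps were smaller than in gastrocnemius, where the threshold chose them. The median of the genes that rose was 0.58 in triceps brachii, with quartiles at 0.25 and 1.13, and 1.32 in gastrocnemius. The median of the genes that fell was -0.43 in triceps brachii, with quartiles at -0.58 and -0.27, and -1.32 in gastrocnemius. Since the values in gastrocnemius set the choice, the gap between the muscles is a description. With the same genes and rat 42 left out of the fit, 220 of 261 were positive with a median of 0.48, and 124 of 140 were negative with a median of -0.32. Counts under an unadjusted p of 0.05 were then 63, all positive, and 29, all negative. Under every other tool, scaling, filter, block and choice of samples, with the sets called anew, the median stayed between 0.49 and 0.69 for the genes that rose and between -0.49 and -0.32 for the genes that fell.

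**Figure D2:**
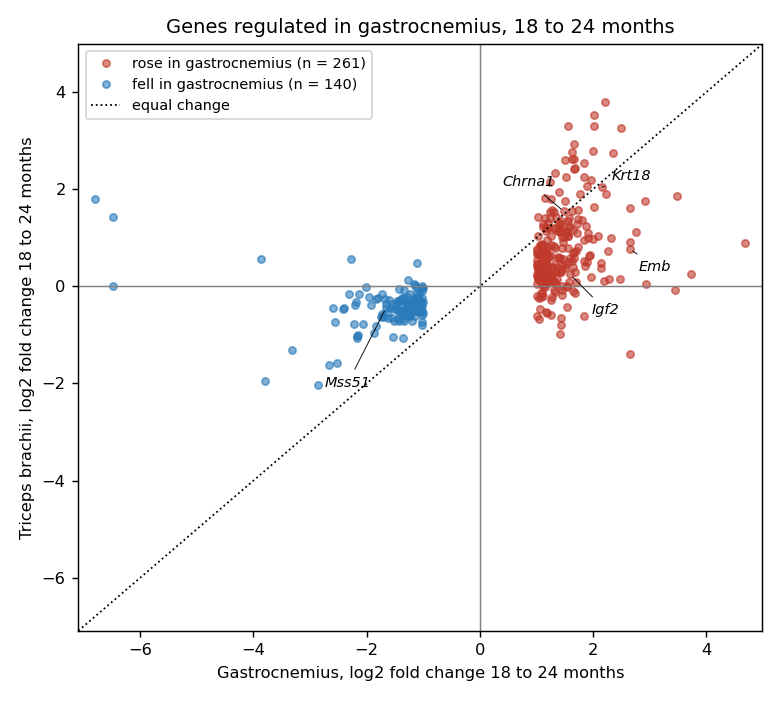
Each point is 1 of the 401 genes regulated in gastrocnemius, with its log2 fold change from 18 to 24 months in gastrocnemius on the horizontal and in triceps brachii on the vertical axis. Most points lie in the quadrants of equal sign and nearer to 0 on the triceps brachii axis than the dotted line of equal change, with medians of 0.58 and -0.43 in triceps brachii.

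Single rats showed how far the step reached. The mean log2 level of the 261 genes, set against the 18-month mean of the muscle, was between -0.22 and 0.25 in early-sarcopenic triceps brachii and between 0.05 and 0.69 in sarcopenic triceps brachii. It was highest in rats 42 and 50, at 0.69 and 0.55, and lowest in rats 43 and 49, at 0.05 and 0.08, so that the groups overlapped. For the 140 genes that fell in gastrocnemius, the sarcopenic values ran from -1.29 to -0.13 and the early-sarcopenic from -0.23 to 0.21. Rat 42 was at -1.29, rat 41 at -0.62 and the other 7 between -0.34 and -0.13. In gastrocnemius, rat 42 was at -1.17 for these genes, and rat 47 had the smallest step, at -0.48. Adult triceps brachii lay at -0.14 to 0.24 for the first set and at -0.31 to 0.06 for the second, within or near the range of 18 months.

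**Figure D3:**
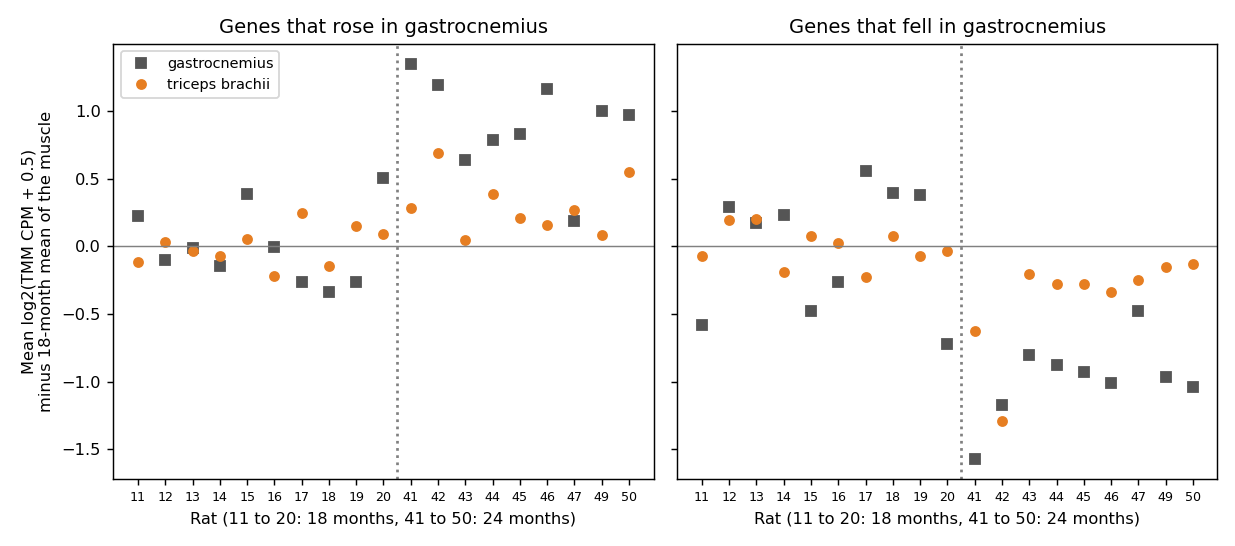
Mean over the genes that rose (left) or fell (right) in gastrocnemius of log2(TMM CPM + 0.5), minus the 18-month mean of the same muscle, for each rat of 18 and 24 months (horizontal axis), with squares for gastrocnemius and circles for triceps brachii. Sarcopenic triceps brachii lies at 0.05 to 0.69 and -1.29 to -0.13, and is closer to 0 than gastrocnemius in 8 of 9 sarcopenic rats for each set, the exceptions being rat 47 (left) and rat 42 (right).

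The genes with the smallest p for a rise in gastrocnemius had unequal steps in triceps brachii, from almost none to one larger than the median of the genes that rose. Igf2, the fetal insulin-like growth factor, had 25.7 to 87.8 TMM CPM at 18 months and 49.8 to 122 at 24 months in triceps brachii, a log2 fold change of 0.24 (adjusted p = 0.619), beside 1.59 in gastrocnemius. Adam19, a membrane metalloprotease, had 0.33 in triceps brachii (adjusted p = 0.363) and 1.19 in gastrocnemius, and Cnp, an enzyme of myelinating cells, 0.28 (adjusted p = 0.364) and 1.05. ENSRNOG00000025705 had 0.0039 and 1.44. Larger steps in triceps brachii were found for Vopp1, Sec1, Emb and Myo5b, at 0.45, 0.70, 0.77 and 1.61. In gastrocnemius these had 1.13, 1.65, 2.65 and 2.65. Myo5b was low in triceps brachii, at 0.135 to 1.24 TMM CPM at 24 months. S100a4, a calcium-binding protein of fibroblasts and immune cells that is named for its small p in triceps brachii, had a step in both muscles. In triceps brachii it had 11.7, 20.4 and 50.7 TMM CPM and then 25.9, 60.1 and 97.3, a log2 step of 1.02 (SE of 0.27, adjusted p = 0.0965), with 1.48 in gastrocnemius.

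Among those with the smallest p that fell in gastrocnemius, Mylk2, the myosin light chain kinase of fast fibres, had a log2 fold change of -0.37 in triceps brachii (adjusted p = 0.293) and -1.29 in gastrocnemius. Phka1 and Phkg1, subunits of the kinase that starts glycogen breakdown, had -0.38 and -0.42 in triceps brachii (adjusted p = 0.331 and 0.267) and -1.35 and -1.27 in gastrocnemius. Mss51, a mitochondrial protein of fast muscle, had -0.44 and -1.66, and Rxrg, a retinoid receptor, -0.54 and -1.24. The difference between the steps of Rxrg was 0.60 with an unadjusted p of 0.00276. In 7 of 9 sarcopenic rats Rxrg in triceps brachii was below every early-sarcopenic rat.

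Genes of fast fibres were lower in level in triceps brachii at 24 months, without a call. All 10 with a symbol had a negative log2 fold change, with a median of -0.38 in triceps brachii and -0.99 in gastrocnemius. Over all genes with a symbol these medians were -0.01 and -0.21. In gastrocnemius all 10 passed at an adjusted p under 0.05, beside 12.0% of all genes lower at that limit. Of the 2145 genes with a symbol, 1348 passed there in either direction. In triceps brachii 7 had an unadjusted p under 0.05, and 0 passed adjustment in edgeR. At that unadjusted limit 5.8% of all genes and 9.93% of genes with a symbol were lower. Actn3, the alpha-actinin of fast fibres, had 10400, 13600 and 16900 TMM CPM at 18 months and 3200, 10800 and 12900 at 24 months, a log2 step of -0.42 (SE of 0.22, adjusted p = 0.363). Rat 42 was at 3200 and the next lowest at 6780. Without rat 42 all 10 stayed negative with a median of -0.28, and 0 had an unadjusted p under 0.05. Most of the 10 are among the muscle markers by which rat 42 was set apart, so a weaker step without it was to be foreseen.

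Glycolysis and glycogen genes had the same sign. Of 18, 17 had a negative log2 fold change, and the median was -0.35, beside -0.94 in gastrocnemius. An unadjusted p under 0.05 was found in 10 of the 17, beside 5.8% of all genes and 9.93% of genes with a symbol lower at that limit. Aldoa, the muscle aldolase, had 13400, 17200 and 22600 TMM CPM at 18 months and 5690, 13300 and 20900 at 24 months, a log2 step of -0.44 (SE of 0.19, adjusted p = 0.255). Pgk1, phosphoglycerate kinase, had a log2 fold change of -0.37 (adjusted p = 0.225) and Gpd1, which links glycolysis to lipid synthesis, of -0.51. Hk2, a hexokinase, had 0.03. Without rat 42 all 18 were negative with a median of -0.25, and 0 had an unadjusted p under 0.05. Eno3 and Pygm of this list are also among the muscle markers by which rat 42 was set apart. Each count is to be read beside the genes with a symbol, of which 46.9% were positive in triceps brachii with a median of -0.01.

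Genes of fatty acid use had the opposite sign. All 17 genes of fatty acid uptake and oxidation had a positive log2 fold change in triceps brachii. Of all genes 55.7% did, and of those with a symbol 46.9%. Their median was 0.31, and 10 had an unadjusted p under 0.05 in edgeR. At that limit 9.23% of all genes and 8.81% of those with a symbol were higher. In gastrocnemius 3 of the 17 were positive, beside 51.6% of all genes, with a median of -0.15. Over all genes with a symbol the median there was -0.21, so the list did not stand below them. None passed adjustment in triceps brachii in edgeR. Cd36, the fatty acid transporter of the fibre membrane, had 33.0, 59.8 and 69.9 TMM CPM at 18 months and 51.0, 75 and 172 at 24 months, a log2 step of 0.76 (SE of 0.23, adjusted p = 0.13), and was above every early-sarcopenic rat in 6 of 9.

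Lpl, lipoprotein lipase, went from a mean of 216 to 359 TMM CPM, a log2 fold change of 0.74 (adjusted p = 0.13). Hadhb, a subunit of the mitochondrial trifunctional protein and the most abundant of the list, had 447, 509 and 764, and then 494, 671 and 977 TMM CPM, a log2 step of 0.34 (SE of 0.13, adjusted p = 0.192). Mlycd, malonyl-CoA decarboxylase, which lifts the brake on fatty acid entry into mitochondria, was not on the list but among the genes with the smallest p. It had 55.0, 71.5 and 91.9 TMM CPM and then 60.3, 98.8 and 220, a log2 step of 0.62 (SE of 0.15, adjusted p = 0.0693), with 7 of 9 sarcopenic rats above every early-sarcopenic rat. In gastrocnemius Mlycd had 0.09. Without rat 42 all 17 genes of the list stayed positive, with a median of 0.19 and 6 under an unadjusted p of 0.05. The summed level of the list was highest in rats 41 and 42, at 6310 and 6270 TMM CPM, against 3460 to 5420 in the other sarcopenic rats. Lipe, the hormone-sensitive lipase and the single fat cell marker of 7 with a symbol, was highest in the same rats, at 52.3 and 51.9 TMM CPM against 20.6 to 37.5. Its log2 step was 0.42 (SE of 0.18, unadjusted p = 0.0278, adjusted p = 0.263) and 0.31 without rat 42. The part of fat cells in the level of the list was not tested.

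The other mitochondrial genes had small steps in triceps brachii. The 16 genes of the TCA cycle had a median log2 fold change of -0.04, the 28 nuclear genes of the respiratory chain -0.08 and the 8 genes of the mitochondrial genome 0.07, and 0 of them had an unadjusted p under 0.05. Without rat 42 these medians were -0.02, -0.07 and 0.12. In gastrocnemius, with all rats, they were -0.35, -0.33 and -0.32. Over all genes with a symbol the median was -0.01 in triceps brachii and -0.21 in gastrocnemius. Idh3a, a subunit of isocitrate dehydrogenase, had -0.20 in triceps brachii (adjusted p = 0.491), Atp5b, the beta subunit of ATP synthase, -0.08, and Mt-co1, a cytochrome oxidase subunit, 0.14. Ndufb11, a subunit of complex I, had -0.21 (adjusted p = 0.416).

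**Figure D4:**
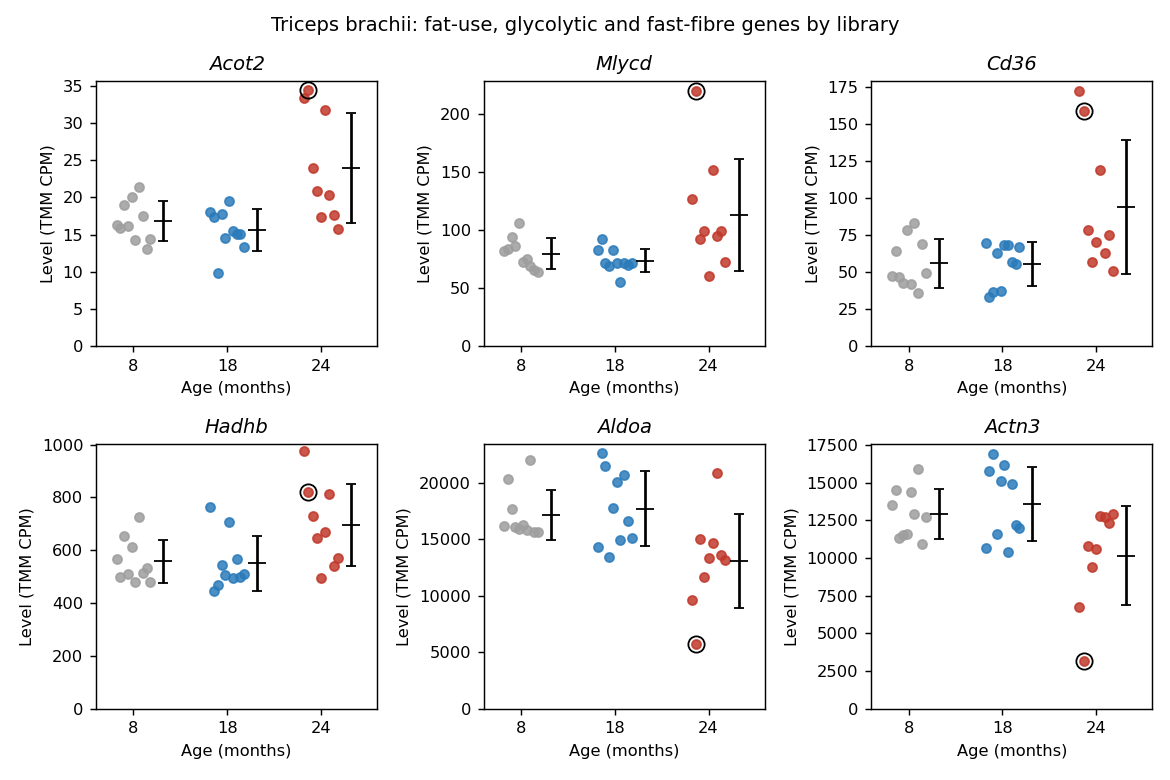
Level in TMM CPM (vertical axis, from 0) of 6 genes in each triceps brachii library by age in months, with mean and SD of the group in black and rat 42 ringed. Acot2, Mlycd, Cd36 and Hadhb reach 34.4, 220, 172 and 977 TMM CPM in sarcopenic rats, and rat 42 has the lowest Aldoa and Actn3, at 5690 and 3200.

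Matrix, immune and proliferation genes had smaller median steps in triceps brachii than in gastrocnemius. Of 28 matrix genes, 19 were positive, beside 55.7% of all genes and 46.9% of those with a symbol. The matrix median was 0.10, beside 0.57 in gastrocnemius. An unadjusted p under 0.05 was found in 4 matrix genes, all positive, beside 9.23% of all genes higher at that limit. Without rat 42 the matrix median was 0.09 and the count of matrix genes at that limit also 4. In the full set of libraries the 4 were Cilp, a cartilage matrix protein, at 1.30 (SE 0.34, adjusted p = 0.0919), Timp1, a metalloprotease inhibitor, at 0.91, Postn, periostin, at 0.81, and Fap, a fibroblast protease, at 0.42. Cilp had 11.3 to 63.6 TMM CPM at 18 months and 8.20 to 243 at 24 months, and its groups overlapped at both ends. Col3a1, the most abundant matrix gene of the list, had -0.04 in triceps brachii and 0.59 in gastrocnemius.

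Of 20 genes of immune cells, 16 were positive in triceps brachii, beside 55.7% of all genes and 46.9% of those with a symbol. In 1 positive and 1 negative member the unadjusted p was under 0.05 in edgeR, beside 9.23% and 5.8% of all genes. The median of the list was 0.15, beside 0.76 in gastrocnemius. Without rat 42 the median was 0.10, with 15 positive. Cd28, a T cell costimulator, had a log2 fold change of 1.04 (adjusted p = 0.127), Foxp3, the factor of regulatory T cells, -0.65, and Adgre1, a macrophage receptor, 0.17 (adjusted p = 0.673). In antigen presentation 10 of 12 genes were positive with a median of 0.15, with and without rat 42. With all rats, 3 of the 12 had an unadjusted p under 0.05 in edgeR, all positive. Nlrc5, which switches on class I genes, had 2.21, 3.25 and 3.85 TMM CPM at 18 months and 3.00, 5.00 and 8.61 at 24 months, a log2 step of 0.69 (SE of 0.19, adjusted p = 0.106), and B2m, the light chain of class I, had 0.42 (adjusted p = 0.14).

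Of 54 cell cycle genes, 26 were positive with a median of -0.03 in triceps brachii (55.7% of all genes were positive). In triceps brachii 1 positive and 2 negative members had an unadjusted p under 0.05 in edgeR, beside 9.23% and 5.8% of all genes. In gastrocnemius 53 were positive, beside 51.6% of all genes, with a median of 0.78. Without rat 42, 27 were positive in triceps brachii with a median of 0.0034. Incenp, a mitotic scaffold, was among the genes with the smallest p, with 1.87 to 4.27 TMM CPM at 18 months and 1.47 to 3.24 at 24 months, a log2 step of -0.53 (SE of 0.14, adjusted p = 0.0919). Espl1, separase, had -0.64 (adjusted p = 0.177). The 9 genes of the integrated stress response had a median of 0.02 in triceps brachii (0.01 without rat 42) and -0.36 in gastrocnemius. Atf4, the factor that drives it, had 0.02 in triceps brachii (adjusted p = 0.962), and Gpt2, an alanine transaminase, -0.43 (adjusted p = 0.35). The 5 genes answering to glucocorticoids had a median of -0.01 in triceps brachii and 0.03 without rat 42. Among them, Tsc22d3 had -0.47 (adjusted p = 0.144) with 7 of 9 sarcopenic rats below every early-sarcopenic rat, and Glul, glutamine synthetase, had -0.01.

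**Figure D5:**
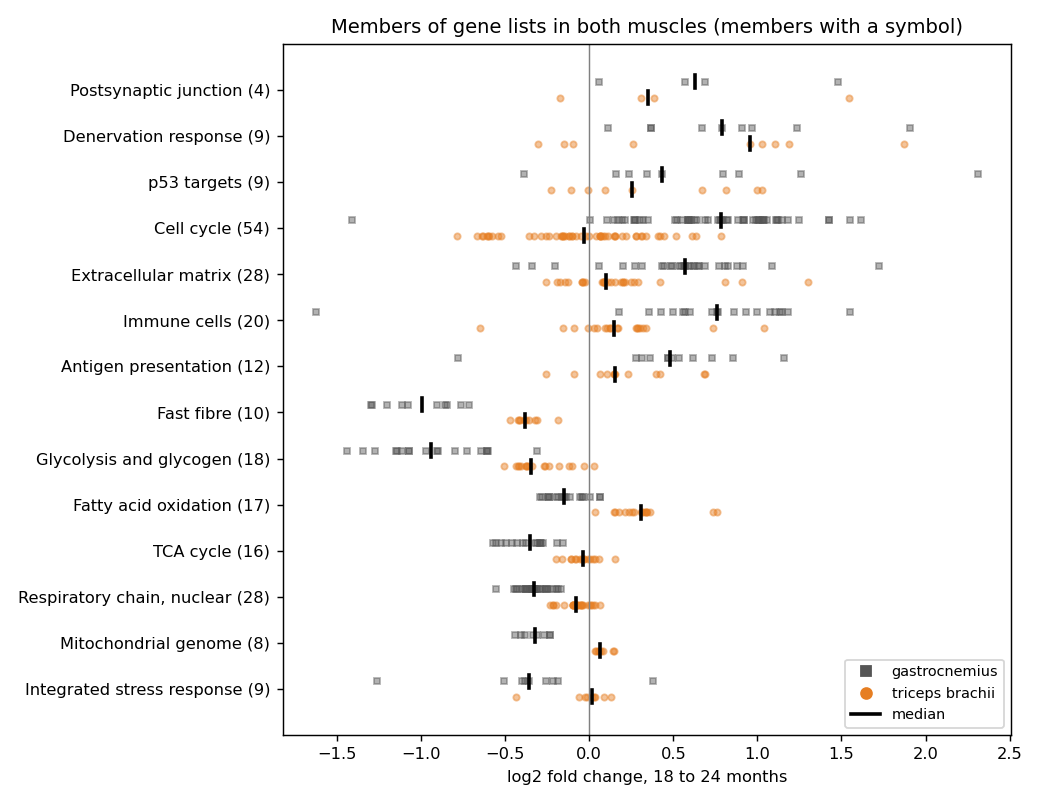
Log2 fold change from 18 to 24 months (horizontal axis) of the members of each gene list that have a symbol, with their number in parentheses, as squares for gastrocnemius and circles for triceps brachii, and the median as a black bar. Triceps brachii medians lie nearer to 0 than those of gastrocnemius for most lists, denervation (0.96 beside 0.79) and fatty acid oxidation being exceptions. Without rat 42 the denervation median in triceps brachii was 0.55, but that of gastrocnemius was not taken without this rat. With the rat as a block, the denervation step in triceps brachii minus that in gastrocnemius had a median of -0.11. Triceps brachii medians lie at the same side for fast fibre (-0.38) and glycolysis (-0.35), and at the opposite side for fatty acid oxidation (0.31). For fatty acid oxidation the gastrocnemius median was -0.15, beside -0.21 over all genes with a symbol.

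Markers of other cell types were compared for the same libraries. The 9 endothelial markers with a symbol summed to 246 to 369 TMM CPM at 18 months and 252 to 406 at 24 months. Hba1 and Hba2, the haemoglobin genes, summed to 84.6 to 203 and 48.1 to 196, mast cell tryptases Tpsab1 and Tpsb2 to 7.22 to 15.3 and 4.61 to 19.3, and Lipe, the fat cell marker given above, had 18.6 to 37.3 and 20.6 to 52.3. Cnp, of Schwann cells, ran from 16.3 to 26.2 and from 19.9 to 41.8, highest in rat 42, and the satellite cell genes Myf5 and Megf10 from 4.81 to 9.48 and from 5.77 to 12.7, also highest in rat 42. Of 5 liver markers 3 had a symbol, and Hpd, a tyrosine catabolism enzyme, was at 0.348 to 5.30 and 1.10 to 16.1 TMM CPM, while Tat had no read in the early-sarcopenic libraries. The part of these cells in the results above was not tested.

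Other genes with a symbol and a small p in triceps brachii had modest steps. Slc19a2, a thiamine transporter, had 3.22, 4.29 and 6.94 TMM CPM at 18 months and 4.65, 6.90 and 10.4 at 24 months, a log2 step of 0.60 (SE of 0.15, adjusted p = 0.057), with 0.08 in gastrocnemius. Laptm4b, a lysosomal membrane protein, had 0.26 (SE 0.07, adjusted p = 0.106) and Uchl1, a deubiquitinase known from neurons, 1.53 (SE 0.41, adjusted p = 0.106). Gucy2c, a guanylate cyclase, had -0.91 (SE 0.24, adjusted p = 0.106), with 6 of 9 sarcopenic rats below every early-sarcopenic rat, and Dupd1, a dual-specificity phosphatase, -0.67 (SE 0.19, adjusted p = 0.106). Nudt18, Fundc2, Zdhhc7, Zfand3, Zfp777 and Cyhr1 completed the lowest p among negative steps, between -0.53 and -0.21.

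The difference between the muscles in this step was then tested directly, as triceps brachii minus gastrocnemius with the rat as a block. With edgeR 0 of 14947 genes passed an adjusted p of 0.05 (0.0%), the smallest adjusted p being 0.0627, while 1827 genes (12.2%) had an unadjusted p under 0.05. DESeq2 called 121 genes, 106 with the higher and 15 with the lower step in triceps brachii, and limma's voom called 4, with 1923 and 1902 at an unadjusted p under 0.05. The edgeR count was 139 without rat 47, whose gastrocnemius had the smallest step for the genes that fell, 7 without rat 42, and lay between 0 and 139 over the 19 rats left out in turn.

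Among genes with a symbol, the smallest p for a higher step in triceps brachii belonged to Tmem50b, Plin4, Nos1, Scn4b and Arhgef37. Nos1, the nitric oxide synthase of the fibre membrane, had -0.37 in triceps brachii and -1.65 in gastrocnemius, a difference of 1.23 (SE 0.26, adjusted p = 0.0729 in edgeR). Plin4, a coat protein of lipid droplets, had -0.09 and -0.99, and Scn4b, a sodium channel subunit, -0.01 and -0.86. For a lower step in triceps brachii, Igf2 differed by -1.29 (SE 0.27, adjusted p = 0.0729), Itm2a by -0.69 and Megf10, a receptor of satellite cells, by -0.85. The others were AABR07065531.5 and ENSRNOG00000025705, whose symbol could not be read with certainty, at -1.66 and -1.50. For Acot2 the difference was 0.71 (SE 0.17, adjusted p = 0.0955), for Gadd45a -0.11 (SE 0.37), for Ncam1 -0.07 (SE 0.35) and for Cdkn1a -0.49 (SE 0.37, adjusted p = 0.625). In the fit without the rat, the gastrocnemius steps of Gadd45a and Ncam1 were 0.97 and 0.91. Those in triceps brachii were larger, so for these genes the fits differ in sign.

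Finally, the muscles of a rat were compared for 3 genes. Over the 9 sarcopenic rats, Chrna1 in triceps brachii and gastrocnemius gave Pearson's r = -0.14 and Spearman's rho = -0.08 on log2(TMM CPM + 0.5), with adjusted p of 0.935 and 0.912 in exact two-sided permutation tests over 6 relations. Over the 10 early-sarcopenic rats r was 0.13 (adjusted p = 0.935, permutation test) and rho was 0.16 (adjusted p = 0.912, permutation test). For Musk, r was 0.57 at 18 months (unadjusted p = 0.0909, adjusted p = 0.273, permutation test), with rho = 0.60 (unadjusted p = 0.0734, adjusted p = 0.342), and 0.32 at 24 months (adjusted p = 0.85, exact permutation test), with rho = 0.27 (adjusted p = 0.912). For Cdkn1a, r was 0.59 at 18 months (unadjusted p = 0.0811, adjusted p = 0.273, permutation test), with rho = 0.54 (adjusted p = 0.342), and -0.10 at 24 months (adjusted p = 0.942, exact permutation test), with rho = -0.05 (adjusted p = 0.912). Without the 2 rats farthest from the median in gastrocnemius, r was -0.14 and 0.15 for Chrna1, 0.44 and 0.56 for Musk and 0.46 and 0.93 for Cdkn1a at 24 and 18 months. No relation passed the test, and with 9 or 10 rats only a strong relation could have.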

How the data were processed

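Gene counts were the only values used. The authors mapped paired reads of TruSeq libraries to Rnor_6.0 with STAR 2.3.0e, counted reads within genes with HTSeq and deposited the counts, unnormalised, in 1 table of 32545 genes by 58 libraries. Ensembl identifiers come from this table and symbols from a supplementary gene list of the study. The kit does not mark strand, so overlapping and antisense genes cannot be told apart.

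Genes with 20 or more reads in at least 1 library were kept (14947). Counts were scaled by TMM and fitted with 1 mean per muscle and age in edgeR 4.0.16 (R 4.3.3), and tested by the quasi-likelihood F test with Benjamini-Hochberg adjustment over all genes tested, which applies to every adjusted p not otherwise named. Regulated means past a 2-fold change with an adjusted p below 0.05. The fit of 1 mean per muscle and age had no rat term, so both muscles of a rat counted as independent in its spread. With the within-rat correlation, in voom, 0 genes were regulated in triceps brachii. With the rat as a block, the step in triceps brachii was tested against that in gastrocnemius. Relations between the muscles used permutation tests, exact for 9 rats and with 100000 resamples for 10. Scripts were tested on simulated counts. DESeq2 1.42.0, limma 3.58.1 (voom with the within-rat correlation), other scalings, filters, samples and blocks, and each rat left out were the alternatives; medians without rat 42 were added after seeing the data. Replicates are separate rats, and no pair of libraries was alike within sampling noise (chi-square per degree of freedom of at least 20.6 in triceps brachii of 18 and 24 months).

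Both muscles of a rat were paired by the animal number of the labels. Deviations from the group means correlated on average at 0.176 and 0.268 between the muscles of a rat at 18 and 24 months, and at -0.0187 and -0.0331 between different rats.

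Members and gene lists were chosen with earlier results of these data known. Genes named by rule were the 2 regulated genes without a symbol with the smallest p, the 10 with the smallest p in each direction with a symbol and a mean of at least 1 TMM CPM, a set of nerve and arrest genes, the 8 with the smallest p each way in gastrocnemius, the 5 each way for the difference between the muscles, and in each list the member with the smallest p and the most abundant one. Genes with a symbol of doubtful reading are left out or given by identifier, and other list members are examples chosen after their values were seen. One gene that this rule names is not reported here. Promoter sequences are from RefSeq on GRCr8, another build than that of the counts, and were matched by symbol.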

Additional observations from a re-analysis of the deposited data

Results flagged for a closer look

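Of 174 groups of libraries tested for a single value far from the others, 17 had one, where chance gives about 1 in 20, or 8.7. Of these, 9 were the triceps brachii library of rat 42 at 24 months, which lay below the other sarcopenic libraries. Its levels were 806 TMM CPM for Mylk2 (next 1480), 168 for Mss51 (next 385), 168 for Phka1 (next 430), 32.8 for Rxrg (next 63.1), 2.78 for AABR07022113.1 (next 10.2), 58 for Phkg1 (next 125), 16.8 for Gpt2 (next 60.3) and 3200 for Actn3 (next 6780). Its mean log2 level of the genes that fell in gastrocnemius was -1.29 (next -0.62). The levels of these genes are not independent of each other.

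Rat 50 stood above the other sarcopenic rats for Musk, at 8.60 TMM CPM (next 3.62), for Igf2, at 122 (next 72.7), and for Tp73, at 0.545 (next 0.209). Sarcopenic gastrocnemius had 7.28 to 23.9, 156 to 624 and 1.21 to 6.10 TMM CPM for these genes. The same triceps brachii library had 4.96 TMM CPM of ENSRNOG00000016149, a gene otherwise seen mainly in gastrocnemius. Values of rat 50 are to be read with this in mind, and a cause was not tested. Rat 45 stood above the other sarcopenic rats for Adgre1 in triceps brachii, at 25.4 (next 15.9). At 18 months, rat 14 was high for Chrnb1, at 120.0 (next 84.4), and rat 15 for Tsc22d3, at 23.3 (next 17.1), while rat 13 was low for Incenp, at 1.87 (next 3.04), and rat 16 for Adgre1, at 6.59 (next 10.5).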

How the results depend on the processing

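The count of 22 regulated genes in triceps brachii became 39 with DESeq2, 12 with RLE and with upper quartile factors, 11 with filterByExpr, 10 with no filter, 1 with only triceps brachii libraries, and 0 with voom and with only the groups compared. The 29 genes without a fold limit became 68, 16, 15, 15, 13, 1, 0 and 0 in the same order. With each rat left out the counts ran from 3 (without rat 12) to 59 (without rat 17) and from 3 to 104 (same rats); 22 and 23 of 29 fits moved them by over 1.5 times. With the label number as a replicate block they were 8 and 30, the latter 16 higher and 14 lower; same-numbered rats of both ages correlated at -0.0197 on average, 0 of 10 best with their own number, so the numbers do not pair rats. Gastrocnemius gave 714 genes with library totals and 299 to 506 without single rats. Library totals shifted the median of all genes to 0.132 in triceps brachii and 0.265 in gastrocnemius, with 76.3% and 81.7% positive. The difference between the muscles gave 121 genes with DESeq2, 4 with voom and with no filter, 5 with library totals, 0 with no replicate block, and 0 to 139 without single rats, run for the 19 rats of 18 and 24 months only. The triceps brachii medians of the late-step genes kept their sign and size in every alternative (0.49 to 0.69 and -0.47 to -0.32 without single rats). The relation for Cdkn1a at 24 months was 0.081 with library totals. Signs of steps near 0 turned: with library totals Plin4 0.023, Scn4b 0.0891, Mdm2 0.0863, Atp5b 0.0186, Col3a1 0.0491 and Glul 0.102; with the replicate block Mdm2 0.00851, Atf4 -0.0103 and Col3a1 0.0918; with voom Col3a1 0.0999 and ENSRNOG00000025705 (Armchx2 in the gene list) -0.0344; with only triceps brachii libraries -0.00788 for the latter and -0.00256 for Atf4, and with only the groups compared -0.00779 and -0.0013. Without single rats the ranges were -0.118 to 0.0827 for Armchx2, -0.0631 to 0.0238 for Scn4b, -0.0681 to 0.0268 for Mdm2, -0.0609 to 0.057 for Atf4, -0.14 to 0.166 for Col3a1, -0.211 to 0.0967 for Glul, and -1.19 (without rat 50) to 6.13 (without rat 20) for ENSRNOG00000016149. The causes were not tested.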
